A study of Mus musculus with 19 samples.

Results

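miR-132, miR-212 and miR-129 are microRNAs (miRNAs) whose levels in neurons are tied to neuronal activity, and their levels were described here per tissue, per arm and per strain in mice of a high-active and a low-active inbred strain. Every mouse miRNA on the array whose name has the stem miR-132, miR-212 or miR-129, with any locus number or arm, was taken. This gave 7 of the 1079 mouse miRNAs measured, namely mmu-miR-132-3p, mmu-miR-132-5p, mmu-miR-212-3p, mmu-miR-212-5p, mmu-miR-129-5p, mmu-miR-129-1-3p and mmu-miR-129-2-3p, written below without the species prefix.

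High-active mice were of the inbred strain C57L/J and low-active mice of the inbred strain C3H/HeJ, which differ in the distance they run on a wheel of their own accord. The question was which miRNAs differ between such strains before any running. All mice hybridised were male, were 8 weeks old when they were placed in single housing, and spent 1 week with a locked wheel before tissues were taken. Their body composition was scanned by X-ray before they were killed, and they were anaesthetised with isoflurane. No other treatment is named. RNA was chosen on its integrity, 4 samples per strain and tissue were hybridised, and 5 arrays were dismissed by the authors for poor signal. The 19 arrays analysed came from 8 mice that gave 1 to 3 tissues each. They were 4 high-active and 3 low-active nucleus accumbens arrays, 4 high-active and 2 low-active soleus arrays, and 2 high-active and 4 low-active EDL (extensor digitorum longus) arrays. Each activity level is 1 inbred strain, so activity level and strain cannot be told apart. The tissues are bulk samples, in which fewer cells of a type and less RNA per cell cannot be told apart.

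A miRNA is cut from a hairpin precursor, which can give a mature strand from its 5′ arm (5p) and from its 3′ arm (3p), and the strand guides a silencing complex to messenger RNAs that pair with its seed, bases 2 to 8. miR-132 and miR-212 are cut from the same primary transcript, which the transcription factor CREB induces after synaptic activity or neurotrophin exposure in neurons. miR-132-3p is known to promote the growth of dendrites and spines and to repress p250GAP, and in rats miR-212 in the dorsal striatum is known to limit cocaine intake. miR-129-5p is abundant in brain, is made from a pair of loci, and in rat hippocampal neurons represses targets during homeostatic weakening of synapses. The nucleus accumbens is the ventral part of the striatum and a centre of reward and motivated movement. The soleus is a slow postural muscle and the EDL a fast muscle of the lower hind limb.

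The mature sequences are shown because the arms that share a seed, and those that do not, are the units compared below. RefSeq entries on the build GRCm38.p6 were matched for 6 of the 7 members, and capitals mark the seed. No sequence is printed for miR-129-1-3p.
miR-132-3p: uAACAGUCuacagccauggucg
miR-212-3p: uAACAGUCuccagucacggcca
miR-132-5p: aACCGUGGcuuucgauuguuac
miR-212-5p: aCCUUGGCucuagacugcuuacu
miR-129-5p: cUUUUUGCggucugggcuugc
miR-129-2-3p: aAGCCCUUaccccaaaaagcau

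miR-132-3p and miR-212-3p have the seed AACAGUC in common, which no other entry among the 1679 mature names of the table carries, and the other 4 seeds were shared with 0 other entries. Outside the seed the pair differed at 5 positions and was equal at 17 of 22. The differences, with the miR-132-3p base first and positions counted from the 5′ end, were A10C, C14U, U17C, U20C and G22A. The arrays hold separate probes for these miRNAs, and how far each probe binds the other miRNA was not tested.

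Mir212 (chr11:75173388-75173478) and Mir132 (chr11:75173682-75173747) lie on the plus strand with 203 bases between their hairpins. Their neighbours in the annotation are Hic1 (chr11:75161377-75170255) and Ovca2 (chr11:75175943-75178808). miR-129-5p is annotated at 2 loci, Mir129-2 (chr2:94241364-94241453, minus strand), which lies within the span of the long noncoding gene Mir670hg (chr2:94160636-94265103), and Mir129-1 (chr6:29022619-29022691, plus strand). The hairpins are shown because the same 5p strand is cut from either, with miR-129-5p and miR-129-2-3p, or the stretch most like it, in capitals.
Mir129-2: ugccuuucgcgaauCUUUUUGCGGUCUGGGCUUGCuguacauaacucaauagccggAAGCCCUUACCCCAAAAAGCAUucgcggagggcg
Mir129-1: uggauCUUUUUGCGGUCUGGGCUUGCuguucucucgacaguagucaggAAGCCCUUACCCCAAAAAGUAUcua

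The stretch in Mir129-1 equals miR-129-2-3p at 21 of 22 positions, with the substitution C20U counted from the 5′ end of miR-129-2-3p. The miR-129-5p signal therefore has no locus of its own, whereas the array gives each 3p arm its own probes. How far the probes of each 3p arm bind the other 3p arm was not tested.

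Values are the background-subtracted brightness of each probe, averaged over its 20 spots, divided by the array's 75th percentile and given on the log2 scale ("log2 signal"). A difference of 1 on this scale is a 2-fold difference. Each member has 2 probes on the array, and the probe with the higher mean log2 signal was used (for miR-132-5p both were at the floor throughout). A probe was called measured on an array where over 50% of its spots were flagged well above background, and signals under 21.2 (log2 4.41) were set to this floor. Brightness also depends on the probe, so members are compared with each other only by how their ratio changes between samples.

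Measured miRNAs numbered 347 to 388 per nucleus accumbens array, 263 to 341 per soleus array and 237 to 332 per EDL array. Arrays of the same group correlated at 0.941 to 0.993 over their 23 pairs. The summed signal of 6 neuronal miRNAs was 16.29 to 16.86 in nucleus accumbens, 10.77 to 11.43 in soleus and 9.86 to 10.92 in EDL, and the neuron-specific miR-124-3p was at the floor on all 12 muscle arrays. The summed signal of 4 muscle miRNAs was 8.60 to 8.96 on 6 nucleus accumbens arrays, 11.02 on that of low-active mouse 197, and 18.73 to 19.58 on muscle arrays. The tissue labels thus matched their defining miRNAs, with a higher muscle sum in mouse 197.

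The first division was between arms that were measured in every tissue and arms that were measured in nucleus accumbens alone. miR-212-3p was measured on 19 of 19 arrays. miR-132-3p was measured on 18 of 19, the exception being the EDL of low-active mouse 195. miR-212-5p, miR-129-5p, miR-129-1-3p and miR-129-2-3p were each measured on 7 of 7 nucleus accumbens arrays and on 0 of 12 muscle arrays. miR-132-5p, the partner strand of miR-132-3p, was measured on 0 of 19 arrays by either probe and gives no comparison. The unscaled brightness of the probe used was -2.80 to 0.63 in nucleus accumbens and -4.04 to -1.33 in muscle, and that of its other probe 3.69 to 14.0 in nucleus accumbens and -3.80 to 0.003 in muscle, all under the floor.

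**Figure D1:**
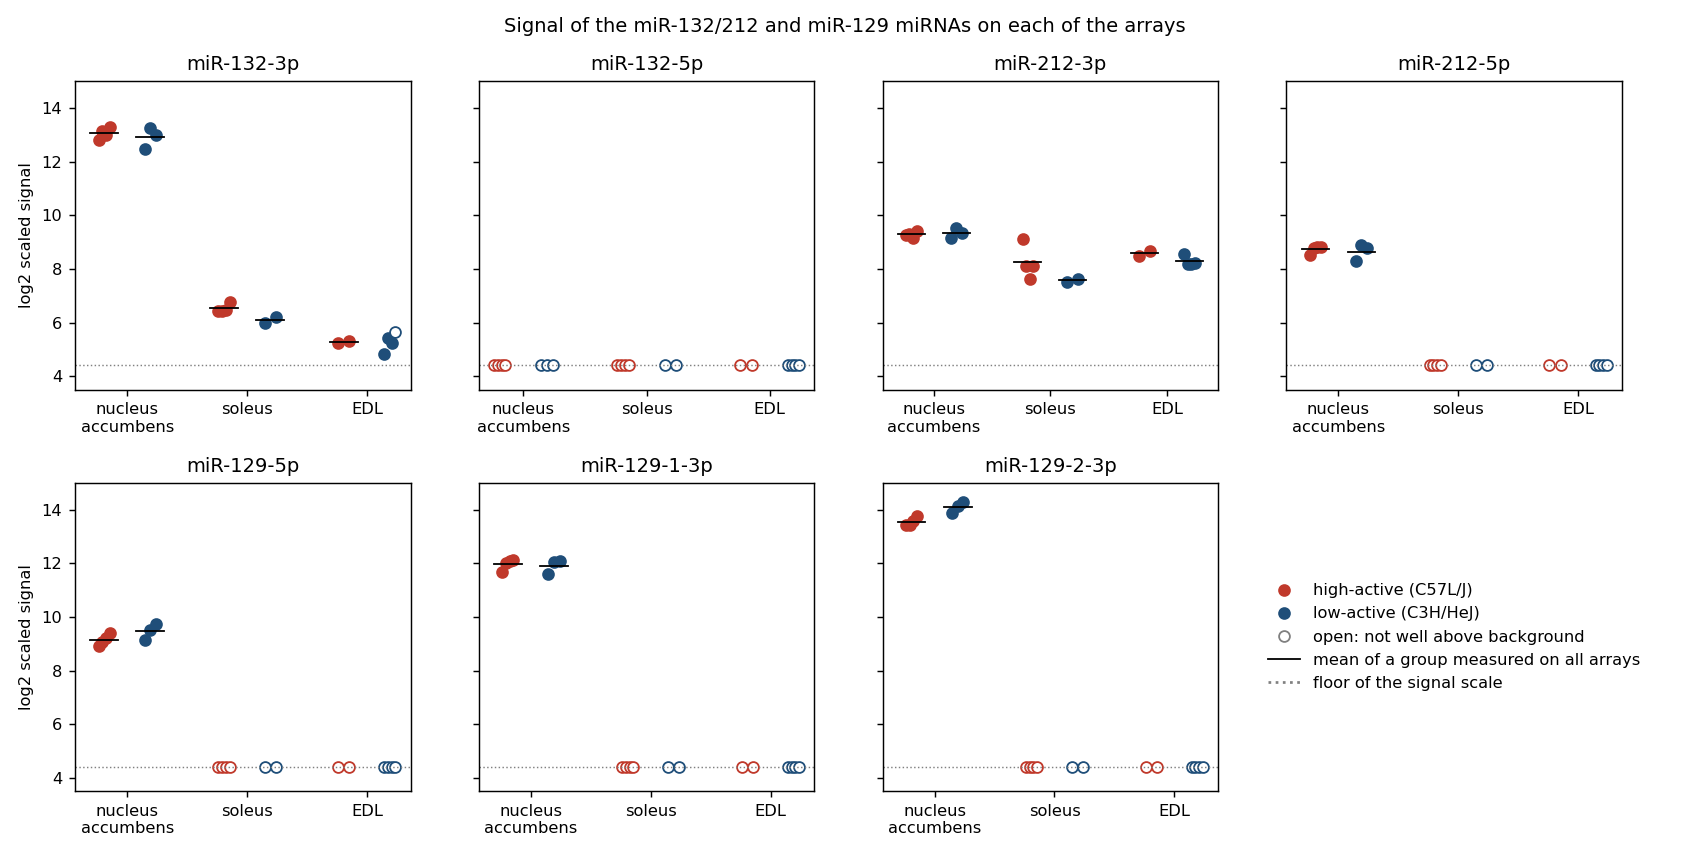
Log2 signal of each member (1 panel per miRNA) on each array, by tissue and, within a tissue, high-active left of low-active; open points are arrays on which the member was not well above background and the dotted line is the floor at 4.41. miR-132-3p and miR-212-3p lie above the floor in every tissue, 4 members only in nucleus accumbens, and miR-132-5p in none.

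miR-132-3p, the main strand of its hairpin, was far higher in nucleus accumbens than in muscle. Its log2 signal was 12.98, 12.81, 13.29 and 13.14 in the nucleus accumbens of high-active mice 223, 224, 225 and 227, and 12.99, 13.25 and 12.47 in that of low-active mice 194, 195 and 197. In soleus it was 6.45, 6.42, 6.78 and 6.49 in high-active mice 223, 224, 225 and 227, and 6.00 and 6.21 in low-active mice 194 and 195. In EDL it was 5.24 and 5.31 in high-active mice 225 and 227, and 5.25, 5.65, 5.42 and 4.82 in low-active mice 194, 195, 196 and 197, of which the array of mouse 195 was not above background. The 3 tissues did not overlap, and the EDL values lay closest to the floor of 4.41. The nucleus accumbens exceeded soleus by 6.66 on the log2 scale (SE 0.15, 101-fold, limma adjusted p = 3.79e-16), averaged over the strains in a fit of all 19 arrays. It exceeded EDL by 7.70 (SE 0.15, 208-fold, adjusted p = 6.02e-17). With another background correction, normexp with an offset of 50 added to every spot, these differences were 5.55 and 5.81. The size of the fold thus depends on the background while the call does not. Within single mice the difference to soleus was 6.40 to 7.05 in 6 of 6 mice, and to EDL 7.60 to 8.04 in 5 of 5 mice.

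miR-212-3p, which has the same seed and comes from the same transcript, differed far less between the tissues. Its log2 signal in nucleus accumbens was 9.16, 9.28, 9.42 and 9.31 in high-active mice 223, 224, 225 and 227, and 9.35, 9.54 and 9.17 in low-active mice 194, 195 and 197. In soleus it was 9.13, 8.10, 8.12 and 7.62 in the same high-active mice, and 7.53 and 7.62 in low-active mice 194 and 195. In EDL it was 8.49 and 8.68 in high-active mice 225 and 227, and 8.19, 8.23, 8.17 and 8.55 in low-active mice 194, 195, 196 and 197. The nucleus accumbens values did not overlap those of either muscle, although the soleus of high-active mouse 223 came within 0.02 of that mouse's nucleus accumbens. Nucleus accumbens exceeded soleus by 1.41 (SE 0.18, 2.66-fold, limma adjusted p = 3.17e-06), and the other probe gave 2.03. It exceeded EDL by 0.89 (SE 0.18, 1.85-fold, limma adjusted p = 0.00038), and the other probe gave 1.51.

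The differences of miR-212-3p depended on how the arrays were scaled. That from soleus was 0.84 (limma adjusted p = 0.00108) when the percentile was taken over all probes and 0.71 (limma adjusted p = 0.00263) after quantile normalization. That from EDL was 0.21 under each, and no longer passed (limma adjusted p = 0.347 and 0.325). Over the 465 miRNAs tested the median difference was 0.23 to soleus and 0.24 to EDL as scaled here, and -0.10 and -0.07 with the percentile over all probes. In single mice miR-212-3p was higher in nucleus accumbens than in soleus in 6 of 6 mice, by 0.02 to 1.91, and higher than in EDL in 5 of 5, by 0.62 to 1.30.

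The ratio of miR-132-3p to miR-212-3p within an array needs no scaling between arrays. Its log2 value averaged 3.67 ± 0.20 in nucleus accumbens (SD, n = 7, range 3.30 to 3.87), -1.63 ± 0.55 in soleus (n = 6, range -2.69 to -1.14) and -3.10 ± 0.43 in EDL (n = 6, range -3.73 to -2.58). The nucleus accumbens lay wholly above the muscles, and the lowest soleus value, that of high-active mouse 223, lay among those of EDL. The ratio was 5.31 log2 units higher in nucleus accumbens than in soleus, and 6.77 higher than in EDL. Each had p = 0.00117 in an exact two-sided permutation test, the smallest that these numbers of unpaired arrays allow. The adjusted p was 0.00527 over the 9 ratio comparisons made. The permutation took the arrays as independent, although 6 mice gave both nucleus accumbens and soleus and 5 both nucleus accumbens and EDL. These p-values therefore do not account for the shared mice. With the other probe of each miRNA the ratio averaged 3.82 ± 0.14 in nucleus accumbens, -1.06 ± 0.50 in soleus and -2.59 ± 0.27 in EDL, which keeps the order. The pair cut from the same transcript thus changed unequally between these tissues.

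**Figure D2:**
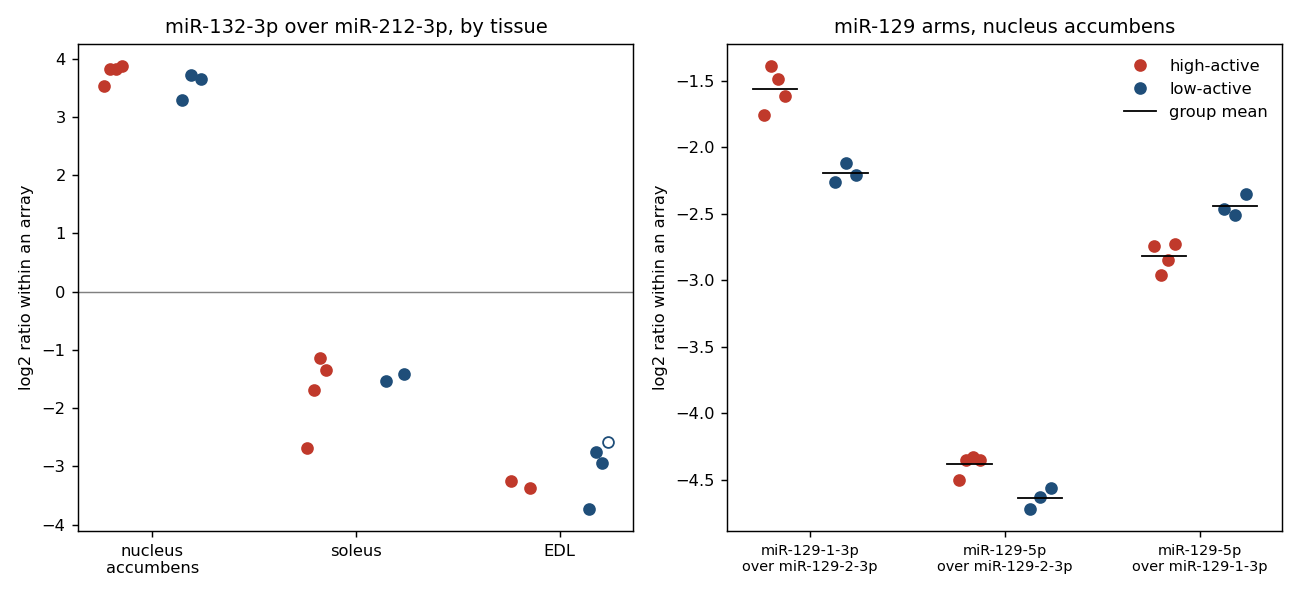
Left, log2 ratio of miR-132-3p over miR-212-3p within each array, by tissue, with high-active left of low-active; right, the 3 ratios between miR-129 arms on the 7 nucleus accumbens arrays, with group means as lines. The left ratio is above 3 on all nucleus accumbens arrays and below -1 on all muscle arrays; on the right the high-active and low-active arrays separate for each pair.

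The other arm of miR-212 and all miR-129 arms had signal in nucleus accumbens only. Their differences are therefore lower bounds, under the background subtraction used here. A bound is the mean of the nucleus accumbens arrays over the mean of the muscle arrays, with each muscle array set to the lowest signal it measured for any probe, or to the member's own signal where that was higher. The nucleus accumbens signal of miR-129-2-3p was at least 636-fold higher than that of soleus and at least 595-fold higher than that of EDL. miR-129-1-3p was at least 173-fold higher than in soleus and at least 162-fold higher than in EDL.

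miR-129-5p was at least 27.9-fold higher in nucleus accumbens than in soleus and at least 26.1-fold higher than in EDL. miR-212-5p was at least 18.1-fold higher than in soleus and at least 16.9-fold higher than in EDL. The brightness of the probe sets how large a bound can be, so the bounds do not rank the members. With normexp the log2 differences from soleus and EDL were 6.95 and 6.85 for miR-129-2-3p, and 5.10 and 4.96 for miR-129-1-3p. They were 2.67 and 2.57 for miR-129-5p, and 2.12 and 2.05 for miR-212-5p. All of these are smaller than the bounds. The offset of 50 that normexp adds to every spot exceeds the unscaled muscle brightness of these members, so it shrinks their differences by construction. The bounds thus apply only to the background subtraction used here. The muscle values of these members stood at the floor and had no spread, and the members entered the fit only through nucleus accumbens. No p-value is therefore given for them.

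miR-132-3p and miR-212-3p, the members with signal in muscle, thus both passed as higher in nucleus accumbens, as did 49.2% of the 465 miRNAs tested against soleus and 49.9% against EDL. Their nucleus accumbens values lay wholly above the muscle values, and 60.9% of tested miRNAs separated in either direction against soleus and 57.6% against EDL. The other 4 members entered the tests only through nucleus accumbens, where they were measured, so their direction was fixed by the filter and they are not counted.

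Between the muscles, miR-132-3p was higher in soleus than in EDL while miR-212-3p had a lower mean there. The soleus value of miR-132-3p exceeded the EDL value by 1.04 (SE 0.16, 95% confidence interval 0.70 to 1.37, 2.05-fold, limma adjusted p = 0.000217). The difference was 1.25 in high-active mice (adjusted p = 0.00133) and 0.82 in low-active mice (adjusted p = 0.0408). Every soleus value lay above every EDL value, and in the 4 mice with both muscles the difference was 1.53 and 1.17 in high-active mice 225 and 227 and 0.75 and 0.56 in low-active mice 194 and 195. The other probe gave 1.03. Unscaled brightness was low, at 54.0 to 96.7 in soleus and 24.9 to 44.0 in EDL. With normexp the difference was 0.26 (limma adjusted p = 0.565), which ends the call. Its offset of 50 exceeds the EDL brightness and lies near that of soleus, so it shrinks such a difference by construction. The difference passed under 32 of 33 alternatives, normexp being the exception. Of all miRNAs tested 15.9% passed in this comparison, 7.31% as higher in soleus, and 6.88% had muscles that did not overlap.

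The soleus value of miR-212-3p was 0.52 below the EDL value (SE 0.19, 95% confidence interval -0.94 to -0.11), which did not pass (limma adjusted p = 0.0841). In the 4 mice with both muscles the soleus minus EDL difference was -0.37 and -1.05 in high-active mice 225 and 227, and -0.66 and -0.61 in low-active mice 194 and 195. The muscle values overlapped because the soleus of high-active mouse 223 was the highest of the 12. Without that array the difference was -0.67 (limma adjusted p = 0.00076).

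**Figure D3:**
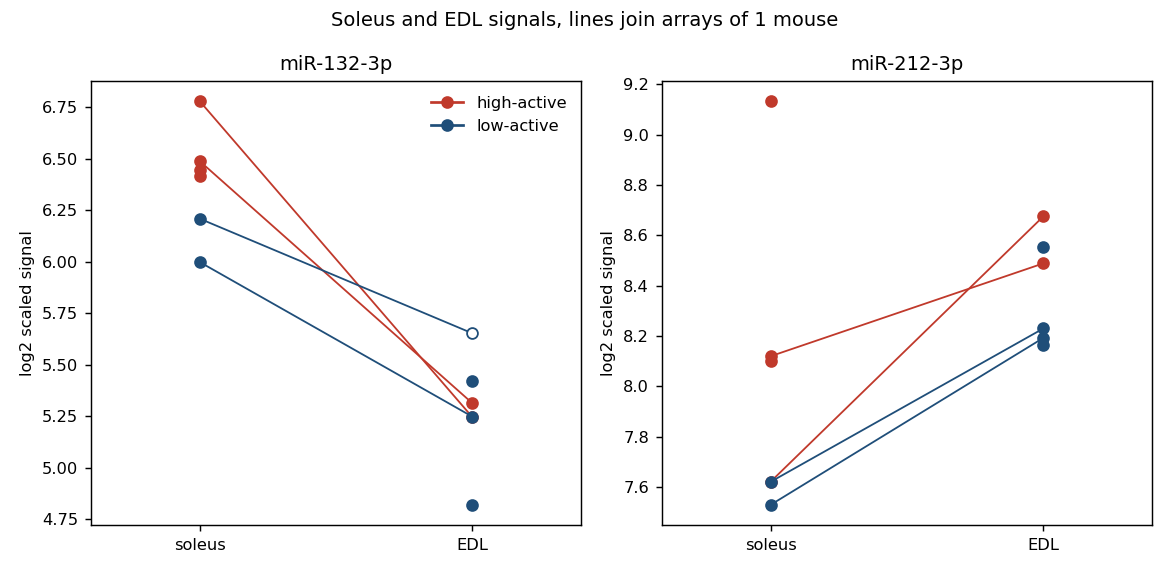
Log2 signal of miR-132-3p (left) and miR-212-3p (right) in soleus and EDL, with lines joining arrays of the same mouse and colours for the strains. In all 4 joined mice miR-132-3p is higher in soleus, by 0.56 to 1.53, and miR-212-3p is lower in soleus, by 0.37 to 1.05.

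The ratio of miR-132-3p to miR-212-3p was 1.47 log2 units higher in soleus than in EDL (exact two-sided permutation p = 0.00433, adjusted p = 0.013 over 9 comparisons). It was 0.61 with normexp (adjusted p = 0.0649). The permutation again took the arrays as independent, although 4 mice gave both muscles. On the EDL array of low-active mouse 195 miR-132-3p was not above background, so that ratio is uncertain. Signal of a pair of slow-fibre miRNAs, miR-208b-3p and miR-499-5p, which lie in myosin genes of slow fibres, moved with these differences: their sum was 10.17 to 11.20 in soleus and 5.72 to 6.73 in EDL. So did the sum of a pair of erythroid miRNAs, at 11.99 to 12.78 in soleus and 10.53 to 11.93 in EDL, and of a pair of endothelial miRNAs, at 13.35 to 13.72 in soleus and 12.70 to 13.23 in EDL. The part of any of these in the result was not tested.

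Between the strains, no member differed past the threshold in nucleus accumbens. miR-129-2-3p came closest. Its log2 signal was 13.56, 13.44, 13.75 and 13.42 in high-active mice 223, 224, 225 and 227, and 14.30, 14.15 and 13.86 in low-active mice 194, 195 and 197. All 3 low-active arrays lay above all 4 high-active arrays, as the values of 21% of the 386 miRNAs tested also separated in 1 direction or the other. The mean was 13.54 ± 0.15 in high-active mice and 14.10 ± 0.22 in low-active mice, a difference of -0.56 (SE 0.14, 95% confidence interval -0.90 to -0.22), which is 1.47-fold higher in low-active mice (limma adjusted p = 0.0548). In this comparison 9.33% of miRNAs passed, 8.29% as lower in high-active mice, and the median difference over all was -0.14.

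The call for miR-129-2-3p turned on the processing. The mean of its probes gave -0.38 (limma adjusted p = 0.0118), the scanner software's signal per miRNA -0.63 (adjusted p = 0.0386), and the array of low-active mouse 197 left out gave -0.68 (adjusted p = 0.0443). The other probe alone gave -0.21, and the slide as a block gave -0.39 (limma adjusted p = 0.176), and inside the slides that carried arrays of each strain it was -0.40 and -0.39. With the percentile taken over all probes it was -0.30 (limma adjusted p = 0.165), and without scaling -0.14 (limma adjusted p = 0.767), when the medians of all miRNAs were 0.09 and 0.25. All these differences ran the same way.

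miR-129-5p was 9.23, 8.93, 9.40 and 9.06 in high-active mice 223, 224, 225 and 227, and 9.73, 9.52 and 9.13 in low-active mice 194, 195 and 197. The strains overlapped, and the difference was -0.31 (95% confidence interval -0.73 to 0.11, limma adjusted p = 0.332). miR-129-1-3p was 12.07, 11.67, 12.13 and 12.03 in the high-active mice, and 12.09, 12.03 and 11.60 in the low-active mice. These strains overlapped almost wholly, with a difference of 0.07 (95% confidence interval -0.33 to 0.47, limma adjusted p = 0.807), although its other probe gave 0.43.

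Among the miR-132 and miR-212 arms none separated the strains in nucleus accumbens. The difference of miR-132-3p was 0.15 (95% confidence interval -0.34 to 0.64, limma adjusted p = 0.671), and it was -0.07 without low-active mouse 197, whose array was the lowest of the 7. miR-212-3p differed by -0.06 (95% confidence interval -0.35 to 0.23, adjusted p = 0.776). miR-212-5p was 8.81, 8.52, 8.81 and 8.78 in high-active mice 223, 224, 225 and 227, and 8.76, 8.88 and 8.28 in low-active mice 194, 195 and 197. Its strains overlapped, with a difference of 0.09 (95% confidence interval -0.31 to 0.48, limma adjusted p = 0.75). The intervals of these 3 arms leave room for a difference of up to 0.64 in size on the log2 scale.

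**Figure D4:**
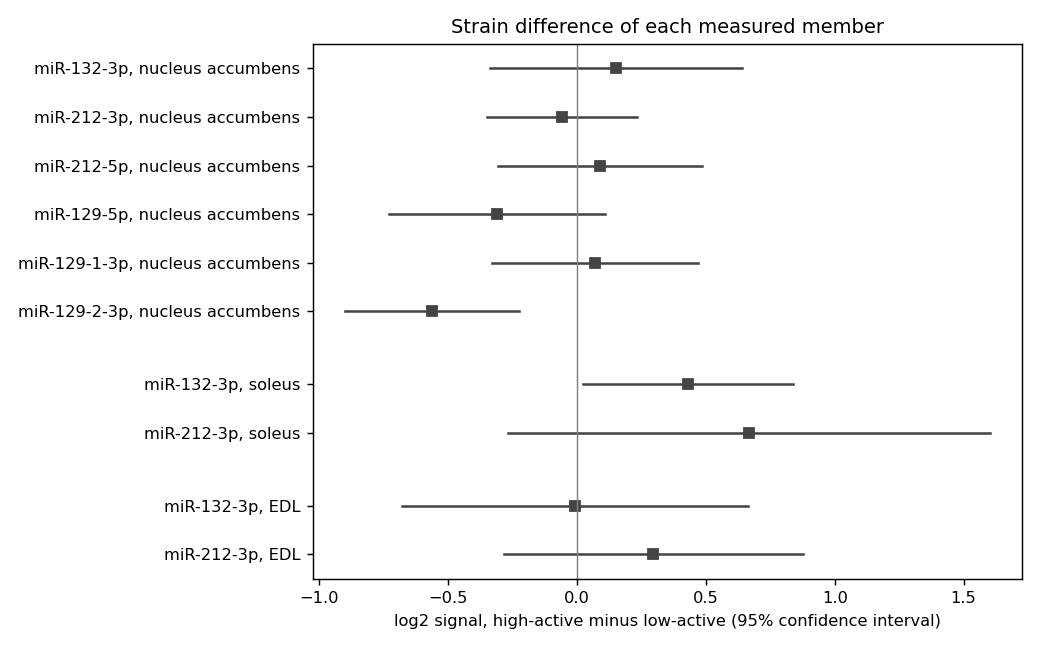
Strain difference in log2 signal, high-active minus low-active, of each member measured in a tissue, with its 95% confidence interval from limma; the vertical line is 0. Only miR-129-2-3p in nucleus accumbens and miR-132-3p in soleus have intervals that leave out 0, and neither passed after adjustment over all miRNAs.

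Within arrays, the ratios between the arms of miR-129 did not overlap between the strains, but none passed, in a design whose smallest exact p lies above the threshold. Over all 48828 pairs of miRNAs measured on the 7 nucleus accumbens arrays, 20.9% had a ratio that did not overlap between the strains. The log2 ratio of miR-129-1-3p to miR-129-2-3p was -1.56 ± 0.16 in high-active mice (SD, n = 4, range -1.76 to -1.39) and -2.20 ± 0.07 in low-active mice (n = 3, range -2.26 to -2.12), so that the strains did not overlap. The difference was 0.63 (exact two-sided permutation p = 0.0571, the smallest that 4 arrays against 3 allow, adjusted p = 0.0856 over 9 comparisons), and it was 0.57 to 0.70 with each array left out in turn. With the other probes the ratio was -1.43 ± 0.17 in high-active mice (range -1.68 to -1.30) and -2.07 ± 0.22 in low-active mice (range -2.31 to -1.90). These values again did not overlap.

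The ratio of miR-129-5p to miR-129-2-3p was -4.39 ± 0.08 in high-active mice and -4.64 ± 0.08 in low-active mice, a difference of 0.25 that was -0.04 with the other probes. The ratio of miR-129-5p to miR-129-1-3p was -2.82 ± 0.11 in high-active mice and -2.44 ± 0.08 in low-active mice, a difference of -0.38. Each of these had an exact permutation p = 0.0571 (n = 4 and 3, adjusted p = 0.0856), and neither pair of groups overlapped. The 3 ratios rest on the same 3 signals and are not independent of each other. Among the miR-132 and miR-212 arms the ratio of miR-132-3p to miR-212-3p differed by 0.21 (exact permutation p = 0.286), that of miR-212-3p to miR-212-5p by -0.15 (exact permutation p = 0.343) and that of miR-132-3p to miR-212-5p by 0.06 (exact permutation p = 0.571), with n = 4 and 3 each.

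Markers of other cells also differed between these nucleus accumbens arrays. The summed log2 signal of 5 miRNAs of epithelium and choroid plexus was 14.40, 11.96, 13.43 and 14.13 in high-active mice 223, 224, 225 and 227, and 11.43, 11.23 and 13.28 in low-active mice 194, 195 and 197. Of these 5 miRNAs, 1 was not above background in mouse 224, 4 in each of mice 194 and 195, and 0 in the others. The sum of 3 oligodendrocyte miRNAs was 11.32 to 11.85 in high-active mice and 10.90 to 11.57 in low-active mice. Of these 3, miR-338-3p was higher in high-active mice by 0.61, which passed (limma adjusted p = 0.0436). The others, miR-219-5p and miR-219-2-3p, differed by 0.03 and 0.02 and did not pass. The sum of a pair of erythroid miRNAs was 10.83 to 12.20 in high-active mice and 11.86 to 13.62 in low-active mice, and miR-451a, the erythroid miRNA of the pair that was measured on all 7 arrays, differed by -1.38 (limma adjusted p = 0.157). The part of any of these, and of the muscle miRNAs in mouse 197, in the miR-129 values was not tested.

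In muscle, miR-132-3p and miR-212-3p were the members that could be compared between strains. In soleus miR-132-3p averaged 6.53 ± 0.17 in high-active mice (SD, n = 4) and 6.10 ± 0.15 in low-active mice (n = 2), a difference of 0.43 (95% confidence interval 0.02 to 0.84) that did not pass (limma adjusted p = 0.244). Its groups did not overlap, as was the case for 31.8% of miRNAs tested in soleus. Of all miRNAs tested there, 2.08% passed. Slide by slide the difference was 0.57 and 0.45 where a slide carried each strain, and it was -0.22 without any scaling, when the median of all miRNAs was -0.68. Mean soleus miR-212-3p was 8.24 ± 0.64 in high-active mice and 7.58 ± 0.06 in low-active mice, whose nearest values met at 7.62. The difference was 0.67 (95% confidence interval -0.27 to 1.60, limma adjusted p = 0.433), and 0.37 without high-active mouse 223. It was 0.016 without scaling and 0.97 with the percentile over all probes, neither of which passed.

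In EDL miR-132-3p averaged 5.28 ± 0.05 in high-active mice (n = 2) and 5.29 ± 0.35 in low-active mice (n = 4), a difference of -0.01 (95% confidence interval -0.68 to 0.66, limma adjusted p = 0.986). Slide by slide the difference was -0.34 and 0.42. miR-212-3p averaged 8.58 ± 0.13 in high-active mice and 8.29 ± 0.18 in low-active mice, a difference of 0.30 (95% confidence interval -0.28 to 0.88, limma adjusted p = 0.88). Both members overlapped between strains, in a comparison in which 0.31% of miRNAs passed and 14.9% did not overlap.

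Whether the strain difference itself changed with the tissue was tested in the fit of all arrays. For miR-132-3p the strain difference in nucleus accumbens minus that in soleus was -0.28 (limma adjusted p = 0.704), nucleus accumbens minus EDL 0.16 and soleus minus EDL 0.44 (adjusted p = 1). For miR-212-3p these were -0.73 (limma adjusted p = 0.327), -0.36 (adjusted p = 0.686) and 0.37 (adjusted p = 1). Thus 0 of 6 tests passed, where 7.96%, 6.67% and 0.645% of miRNAs passed in the 3 contrasts.

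Across the 7 nucleus accumbens arrays, the miRNAs that ran most parallel to each member were found by the SD of the log2 difference between the pair, over 307 miRNAs measured on all 7 arrays. A small SD means that the pair rose and fell together, and the points share arrays, mice and scaling. For miR-132-3p they were miR-674-3p (0.10), miR-128-3p (0.13) and miR-151-5p (0.14), against a median of 0.37 over all candidates. For miR-212-3p they were miR-541-5p, let-7e-3p and miR-1843a-5p (0.10 each), and for miR-212-5p miR-674-3p (0.070), miR-22-3p (0.078) and miR-151-5p (0.086). The pair miR-132-3p and miR-212-5p had an SD of 0.11, with 1 of the 307 closer to miR-132-3p. The pair miR-132-3p and miR-212-3p had one of 0.20, with 12 closer to miR-132-3p. From the side of miR-212-3p, 41 of 307 were closer than miR-212-5p, whose SD with it was 0.17. At least 41 were thus closer to miR-212-3p than miR-132-3p was, and its median over all candidates was 0.27.

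miR-129-1-3p and miR-129-2-3p ran no more parallel than a typical pair. miR-129-5p was most parallel to miR-29b-1-5p (0.091), miR-103-3p (0.11) and miR-409-3p (0.13). miR-129-1-3p was most parallel to miR-30c-2-3p (0.075), miR-22-3p (0.082) and miR-674-3p (0.10), and its SD with miR-212-5p was 0.078, with 1 of 307 closer. miR-129-2-3p was most parallel to miR-330-3p (0.085), miR-532-3p (0.11) and miR-3102-5p.2-5p (0.11). The pair miR-129-1-3p and miR-129-2-3p had an SD of 0.36, with 196 of 307 miRNAs closer to miR-129-1-3p, against 0.15 for miR-129-2-3p and miR-129-5p, with 10 closer to miR-129-2-3p. The pair miR-129-1-3p and miR-129-5p lay between, with an SD of 0.22 and 72 of 307 closer to miR-129-1-3p. The median over all candidates was 0.31 for miR-129-1-3p, near the 0.36 of its pair with miR-129-2-3p. That 0.36 is the SD of the within-array ratio given above. Within strains the SD of this ratio was 0.16 in high-active and 0.07 in low-active mice. The 0.36 is therefore no second observation beside the strain difference of that ratio, which did not pass.

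Other miRNAs linked to neuronal activity or synapses, 30 arms of which were on the array, give the setting of these values. Some also stand in the neuronal and oligodendrocyte lists above. On each muscle array 22 to 27 of the 30 were at the floor, so counts of higher arms would follow from the filter and are not given. The arms measured on all 19 arrays were miR-128-3p, a neuronal miRNA that dampens excitability, miR-181a-5p, and miR-29a-3p, which represses collagen genes. Nucleus accumbens exceeded soleus by 4.09 and EDL by 4.69 for miR-128-3p (limma adjusted p = 9.92e-12 and 1.68e-12). It exceeded them by 2.38 and 1.88 for miR-181a-5p (limma adjusted p = 1.99e-12 and 4.66e-11), and by 1.47 and 1.99 for miR-29a-3p (limma adjusted p = 2.28e-09 and 4.66e-11). miR-124-3p, which marks neurons, averaged 14.76 in nucleus accumbens and miR-9-5p, known from neural progenitors, 14.17, and these were measured on 0 and on 1 of the 12 muscle arrays.

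Between the strains in nucleus accumbens, 1 of 21 tested arms of this list passed, against 9.33% of all miRNAs. It was miR-134-5p, which in rat dendrites represses Limk1, with a high-active minus low-active difference of -0.69 (limma adjusted p = 0.00981). Its log2 signal in nucleus accumbens averaged 5.04 (range 4.59 to 5.55), close to the floor of 4.41. These 21 arms had a median difference of 0.02, while that of every miRNA tested was -0.14. In soleus 0 of 7 and in EDL 0 of 6 passed between strains, against 2.08% and 0.31% of all.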

How the data were processed

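Total RNA of male C57L/J and C3H/HeJ mice was labelled with Cy3 and hybridised to 1-colour Agilent mouse miRNA arrays by the authors. The deposited scanner tables give intensity per spot, background-subtracted and detrended by the scanner software. The authors' own table of log2 values, made in GeneSpring by percentile shift, served as an alternative. Its column medians run from -0.40 to 0.75, its percentile and any centring per miRNA are unknown, and its rows followed the scanner totals within 0.01 except miR-132-3p in EDL, which was not used.

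Outlier spots (4.04 to 7.09% per array) were left out, and 0 were saturated. Spots were averaged over 2754 probes of 1079 miRNAs. Each array was divided by its 75th percentile over the 326 probes measured on all 19 arrays, which was 684 to 2240 in intensity, then floored at 21.2 and converted to log2. The brighter probe stood for a miRNA. Strains were compared within each tissue in limma 3.58.1 (R 4.3.3), over miRNAs measured on at least 3 nucleus accumbens, 2 soleus or 2 EDL arrays. Tissues and interactions were tested in 1 fit of all arrays with 6 group means, over miRNAs measured on 2 arrays of a group. Benjamini-Hochberg adjusted p-values under 0.05 passed. Ratios were tested by exact permutation of arrays taken as independent, with no mouse block. The number of arrays limits the precision. The fits were tested on simulated data.

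Mouse numbers mark the same animal in different tissues. Deviations from group means correlated at 0.04 on average over 15 pairs of arrays of the same mouse and at -0.02 over 43 other pairs (183 miRNAs), and the consensus correlation was 0.0928. Alternatives were the scaling, background, floor, probe rule, filter, slide block, mouse block, authors' table and leaving out each array. For normexp, the median spot and background intensities of the deposited tables were used in place of the planned mean, with an offset of 50. The alternatives for the ratios were chosen after seeing the data.

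The named miRNAs were all members, the 3 most parallel to each in nucleus accumbens, and the brightest 2 to 4 of a list. Members and lists were chosen with earlier results of these data known. Columns that matched no sample numbered 0.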

Additional observations from a re-analysis of the deposited data

Results flagged for a closer look

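A member and a group of 4 arrays in which it was measured made 9 sets, and in 2 of them an array stood far from the other 3. Chance alone flags about 1 in 20 such sets, but the sets share arrays and are not independent. The EDL of low-active mouse 197 had a miR-212-3p log2 signal of 8.55, above the 8.17 to 8.23 of the other 3 low-active EDL arrays. Its miR-132-3p value, 4.82, was the lowest of the EDL. The nucleus accumbens of high-active mouse 224 had a miR-212-5p log2 signal of 8.52, below the 8.78 to 8.81 of the other 3 high-active arrays, and was also the lowest of the 4 for miR-132-3p (12.81), miR-129-5p (8.93) and miR-129-1-3p (11.67).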

How the results depend on the processing

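Of 857 values of single members under the alternatives, 815 kept direction and side of the threshold, 27 changed sign, 6 passed newly and 3 no longer passed, beside 6 that moved. The 815 include tissue differences of the members at the floor in muscle, whose direction was fixed by the filter. They also include arrays left out that lie outside the compared tissues and cannot move the difference. The share unchanged is therefore no measure of stability. Of 98 values of ratios, 95 were unchanged in this sense. The strain ratios among these could not pass under any setting, because their smallest exact permutation p lies above the threshold. For them only the direction could change. The changes of sign were of strain differences, or of their dependence on the tissue, that had not passed. With the percentile over all probes, miR-212-3p in nucleus accumbens was 0.21 and miR-132-3p in EDL 0.11. Without scaling, the values in nucleus accumbens were 0.11 for miR-129-5p and 0.36 for miR-212-3p, and for miR-132-3p -0.22 in soleus and 0.033 in EDL. The tissue dependence of the strain difference was then 0.79 (miR-132-3p) and 0.34 (miR-212-3p) for nucleus accumbens against soleus, 0.023 (miR-212-3p) against EDL, and -0.26 (miR-132-3p) and -0.32 (miR-212-3p) for soleus against EDL. miR-132-3p in EDL was 0.15 after quantile normalization, 0.068 with the mean over probes, 0.14 with the software's signal and 0.043 with the slide block. miR-212-3p in nucleus accumbens was 0.0065 with the mean over probes and 0.00088 with the slide block. The software's signal gave -0.020 for miR-212-5p in nucleus accumbens and -0.086 for the tissue dependence of miR-132-3p (nucleus accumbens against EDL). The other probes turned 2 strain ratios, to -0.043 (miR-129-5p over miR-129-2-3p) and -0.088 (miR-132-3p over miR-212-5p). The cause was not tested.

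No member passed between strains in nucleus accumbens, against 1 (miR-129-2-3p) with the mean over probes, the software's signal, a stricter filter or the fit of all arrays, in which muscle arrays at the floor add no spread. 1 member passed between soleus and EDL, against 0 with normexp, where the ratio of miR-132-3p to miR-212-3p differed by 0.61. With arrays left out in turn the count was 0 to 1 in nucleus accumbens (1 without low-active mouse 197) and 1 to 2 between the muscles (2 without high-active soleus mouse 223). The strain difference then ranged over -0.16 to 0.12 for miR-132-3p in EDL and, in nucleus accumbens, over -0.081 to 0.17 for miR-129-1-3p, -0.066 to 0.33 for miR-132-3p, -0.092 to 0.21 for miR-212-5p and -0.15 to 0.034 for miR-212-3p, and its tissue dependence over -0.059 to 0.33 for miR-132-3p (nucleus accumbens against EDL). A group left with 1 array was assumed to vary like the others.

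With the mouse as a random replicate block, soleus minus EDL was 1.03 for miR-132-3p (limma adjusted p = 0.000117) and -0.54 for miR-212-3p (adjusted p = 0.0687). With a fixed block it was 1.02 and -0.61. The block changed no call, and a fixed block cannot estimate strain contrasts. Over all miRNAs, 36 passed between strains in nucleus accumbens (4 to 55 over the alternatives), 7 in soleus (0 to 51), 1 in EDL (0 to 9), 382 between nucleus accumbens and soleus (295 to 955, the highest with no filter), 368 between nucleus accumbens and EDL (270 to 408) and 74 between the muscles (29 to 119). Arms at the floor in muscle give bounds only, and miR-132-3p in EDL lies close to the floor.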
